A study of Mus musculus with 46 samples.

Results

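The parental effect on allele expression was compared between postnatal day 5 (P5) and adulthood in the dorsal raphe nucleus of F1 hybrid mice, and the change of each gene's total level was followed beside it. The dorsal raphe nucleus is the midbrain group of neurons that supplies the forebrain with serotonin. Genes were taken by a fixed rule, which asked for an autosomal location and a mean summed count (C57 plus CAST) of 50 or more at both ages, and 9845 of the 15499 genes in the tables met it. The animals were female offspring of C57 and CAST parents from 2 reciprocal crosses, named F1i and F1r. There were 7 F1i and 7 F1r animals at P5, 9 and 9 as adults, and 7 and 7 at P15, an age outside the main contrast. No treatment is named for any group, and the age of the adults is given only as adult. Each library is treated as 1 animal's RNA from whole tissue, with neurons, glia and vessels mixed. The labels do not say which parent was the mother in either cross, so results are given by cross. They give the adult animals 2 numbers (such as 5_3) without saying what the numbers mean. Where libraries shared an animal the p-values would measure technical spread, and where animals shared a litter they would not be independent.

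Genomic imprinting is the expression of a gene mainly from the allele of the mother or mainly from that of the father. It is set by DNA methylation marks laid down in the germ line, which are kept in the body at imprinting control regions. In brain many imprinted genes are complete in their bias, whereas others show a partial bias that varies with cell type and age. Some imprinted genes are retrogenes inside the intron of a host gene, or share a locus with an antisense partner, and the host then often shows the opposite bias.

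The parental effect of a gene compares the log2 ratio of CAST to C57 between the crosses, as the F1i value minus the F1r value, over 2. It is positive where the CAST allele of F1i and the C57 allele of F1r were higher, which is the side of the maternally expressed RNA Meg3, and negative on the other side. A bias between the strains that is shared by the crosses cancels in this difference. An effect of 1 means that the higher parental allele had 2 times the level of the other. The change with age is the adult effect minus the P5 effect, given ± SE. The change was tested with edgeR's quasi-likelihood test over all 9845 genes with Benjamini-Hochberg adjustment, with calls made where the adjusted value was below 0.05. The strong allele of a gene is the parental allele that was higher at the age with the larger effect, and the weak allele is the other.

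Summed counts per library were 5100560 to 10319139 at P5 and 4912934 to 13085952 in adults. The raphe markers were present in every library: Tph2, the enzyme that starts serotonin synthesis in neurons, was at 81.0 to 136 CPM (reads as a rate of the animal's total) at P5 and 444.6 to 675.1 CPM in adults. In the totals, 6 adult libraries lay above 0.05 on the first principal component and the other 12 below, and the 6 are said here to stand apart. This component held 51.8% of the variance within adult groups. The cut was chosen after the values were seen, and no wide gap lay there, with 0.096 for F1r 7_2 above it and 0.03 for F1i 3_3 below. The highest value was 0.65, for F1i 1_1. The 6 libraries were F1i 1_1, 2_1 and 3_1 and F1r 5_1, 6_1 and 7_2. Results are given with all libraries, and where a call differed without these 6 that is said beside it. Age and table of origin cannot be told apart, since the authors deposited one table for each age. In bulk tissue, fewer cells of a type and less RNA per cell cannot be told apart either. The summed level of the marker lists differed between the ages: 13 myelin genes had a median of 2440.3 CPM at P5 and 9419.0 CPM in the 12 other adult libraries, and 13 genes of immature neurons and axon growth went from 9780.9 to 1718.7 CPM. The 9 astrocyte genes went from 3803.0 to 9473.3 CPM. These lists named 15 myelin genes, 15 of immature neurons and axon growth and 10 of astrocytes. Only the names found in the tables were summed, and none of those had a mean of 0 CPM. The summed level of 20 genes of DNA methylation and imprint maintenance went from 2067.4 to 988.7 CPM. The part of these shifts in the results below was not tested.

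The parental effect changed between P5 and adulthood in 30 genes, 0.305% of those tested, and 533 genes had an unadjusted p under 0.05. Of the 30 genes, 14 are on the list of maternally expressed imprinted genes and 9 on the list of paternally expressed ones. Of the other 7, 3 are mitochondria-like pseudogenes (Gm13340, Gm13339 and Gm11410) that passed the count limit through F1i alone, and they are left to the end. Among the remaining 27 genes the effect was larger in adults in 10 and smaller in 17. A parental effect at P5 was called in 81 genes (0.823%) and in adults in 96 (0.975%). Both were called in 63 genes, with 28 of them changed and 0 of opposite sign at the 2 ages.

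The lists contained most of the calls. Of 33 maternally expressed names, 27 were in the tables, 20 were tested and 14 were called, 5 with a larger and 9 with a smaller effect in adults. Of 38 paternally expressed names, 28 were in the tables, 20 were tested and 9 were called, 5 larger and 4 smaller. The median size of the change was 0.48 for the tested maternally expressed genes, 0.72 for the paternally expressed ones and 0.04 over all genes tested. The median size of the effect itself was 1.73 at P5 and 1.28 in adults for the first list, 6.11 and 6.15 for the second, and 0.03 and 0.02 over all genes.

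**Figure D1:**
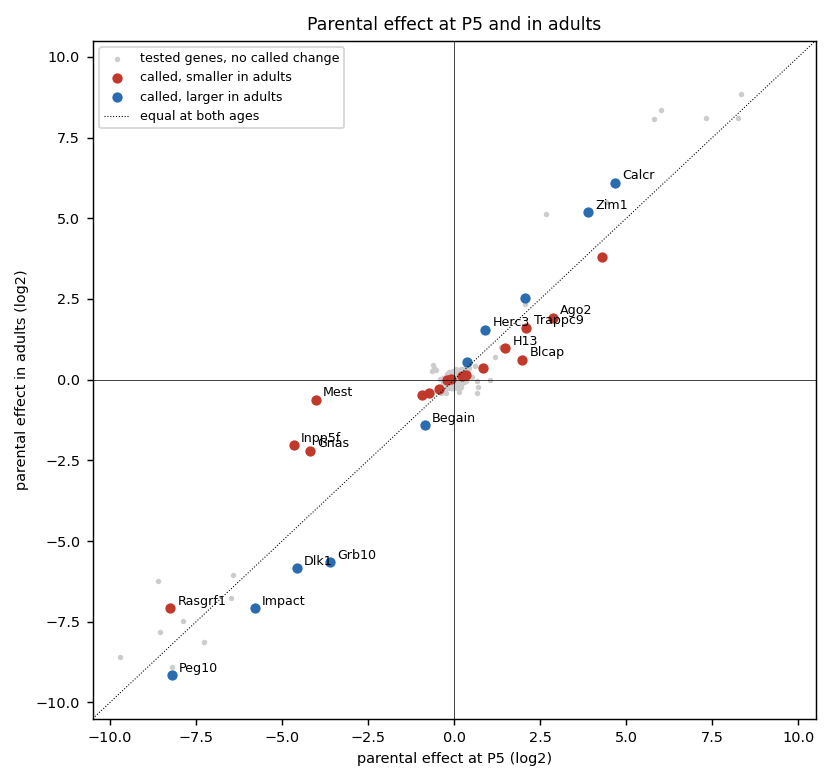
Parental effect at P5 (horizontal axis, log2) against the effect in adults (vertical axis, log2), 1 point per gene. Grey points are tested genes without a called change and also the 3 called pseudogenes. Blue points are the 10 other called genes with a larger effect in adults, and red points the 17 with a smaller effect. Genes with a change of 0.5 or more are named, and the largest step toward 0 is that of Mest, from -4.03 to -0.63.

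A change of the parental effect moves the CAST over C57 ratio one way in F1i and the other way in F1r. The ratio moved in opposite directions in the crosses in 25 of the 27 genes, and both moves passed the test on their own in 20. Genes were called from the difference of these same 2 ratio changes, which favours opposite directions. The counts in this paragraph therefore describe the calls and are not separate support for them. The ratio change was called in F1i in 23 of the 27 genes and in F1r in 25. Over all genes tested it was called in 24% in F1i and 22.5% in F1r, and how many of these changes the crosses share was not counted. The 2 exceptions were Ddc, whose ratio fell in both crosses, and Ttpal. In 11 of the 27 genes the CAST shares at P5 and in adults did not overlap in either cross. Over all 9845 genes 313 were separated in both crosses, 303 of them in the same direction and 10 in opposite directions, and all 10 of the latter were among the called genes.

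The largest change was that of Mest, a paternally expressed gene for a protein of the alpha/beta hydrolase fold, on chromosome 6. Its CAST share in F1i was 4.03%, 5.93% and 7.09% at P5 (lowest, median and highest of 7 animals) and 24.6%, 41.2% and 47.2% in adults (of 9). In F1r it was 90.4%, 93.1% and 97.5% at P5 and 52.5%, 63.2% and 67.4% in adults. The ages did not overlap in either cross, and the adult shares of the crosses lay on either side of equality. The effect went from -4.03 to -0.63, a change of 3.40 ± 0.12 (adjusted p = 2.9e-62 by edgeR). Its strong allele had 23.6 to 42.0 CPM at P5 and 4.94 to 8.49 CPM in adults, a log2 change of -2.36 ± 0.06. The weak allele rose from 2.08 ± 0.718 to 4.17 ± 0.864 CPM (SD, n = 14 and 18). The total fell with the strong allele, from 36.1 ± 5.42 to 10.7 ± 1.30 CPM. Mean summed counts of Mest were only 232 at P5 and 108 in adults. Copg2 overlaps Mest on the other strand, and its strong allele, on the side of the weak allele of Mest, also rose. Since the strand counted is not given, reads of the 2 genes cannot be told apart, and the source of the weak-allele rise was not tested.

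Inpp5f encodes an inositol phosphatase, and a brain transcript that starts inside the gene is known to be paternally expressed. Its mean summed count was 4309 at P5 and 2241 in adults. The CAST share in F1i was 3.14%, 3.99% and 4.16% at P5 and 18.2%, 19.5% and 21.7% in adults. In F1r it was 94.9%, 96.2% and 97.0% at P5 and 78.8%, 79.7% and 80.9% in adults. Every adult animal was closer to equality than every P5 animal of its cross. The effect went from -4.66 to -2.03, a change of 2.63 ± 0.04 (adjusted p = 4.4e-124 by edgeR). The total was 621.3 to 751.7 CPM at P5 and 184.4 to 308.9 CPM in adults. The strong allele fell by 471.2 CPM on average and the weak allele rose by 18.4 CPM, so that the total again moved with the strong allele. Counts are summed over the whole gene, and the transcripts of Inpp5f cannot be told apart.

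Gnas encodes the stimulatory G protein alpha subunit and other products from several promoters with different imprints, and its antisense RNA Nespas overlaps it. Gnas is on the maternally expressed list, but its counts lay on the other side, with a CAST share of 2.46% to 7.62% in F1i at P5 and 13.8% to 36.4% in adults. In F1r the share was 92.6% to 98.0% at P5 and 79.5% to 94.8% in adults, and the ages overlapped in this cross. The effect went from -4.18 to -2.21, a change of 1.97 ± 0.18 (adjusted p = 5.7e-18 by edgeR), at means of only 126 and 75 counts. Nespas, listed as paternally expressed, had the effects 8.34 and 8.85 on the opposite side and no called change. Which strand was counted is not given in the sources used here, so reads of the overlapping genes of this locus cannot be told apart.

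Of the host genes of imprinted retrogenes, Blcap and H13 had a smaller and Herc3 a larger effect in adults. Blcap, a small conserved protein whose intron holds the paternally expressed Nnat, had a CAST share in F1i of 74.0%, 75.8% and 78.3% at P5 and 56.0%, 59.0% and 60.9% in adults. In F1r the share was 14.1%, 16.6% and 21.4% at P5 and 34.6%, 36.7% and 42.8% in adults. The ages did not overlap in either cross. The effect went from 1.98 to 0.62 (change -1.36 ± 0.05, adjusted p = 5.9e-57 by edgeR). The strong allele fell from 77.6 ± 8.65 to 31.0 ± 3.35 CPM, whereas the weak allele had 19.97 ± 3.54 and 20.2 ± 1.97 CPM (adjusted p = 0.62). The fall of the total by 46.4 CPM was thus as large as the fall of the strong allele by 46.6 CPM. The weak allele's log2 change was 0.03, and -0.02 with no scaling beyond the library total.

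H13, the signal peptide peptidase and host of Mcts2, also had a strong allele that fell, but its weak allele fell too and its change was smaller. Its CAST share in F1i was 73.9% to 77.4% at P5 and 64.4% to 70.4% in adults, and in F1r 26.6% to 29.4% and 32.2% to 38.7%. The ages did not overlap. The strong allele fell from 116 ± 4.45 to 75.8 ± 6.65 CPM, and the weak allele from 41.5 ± 4.002 to 38.4 ± 3.33 CPM, with the effect changing by -0.52 ± 0.04 (adjusted p = 4.1e-26 by edgeR). Mcts2 and H13 lie on the same strand, and Mcts2 itself had too few counts for the test.

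Herc3, a HECT and RCC1 domain ubiquitin ligase that hosts Nap1l5, moved the other way. Its CAST share in F1i was 63.5%, 65.1% and 66.6% at P5 and 70.6%, 75.3% and 78.1% in adults. In F1r it was 31.4%, 34.6% and 38.5% at P5 and 22.5%, 26.2% and 27.4% in adults, without overlap in either cross. The effect rose from 0.90 to 1.54 (change 0.64 ± 0.03, adjusted p = 1e-38 by edgeR). The weak allele fell from 65.1 ± 3.14 to 44.7 ± 3.98 CPM, whereas the strong allele had 122 ± 6.67 and 129 ± 8.90 CPM. The total fell slightly, from 187 ± 7.04 to 174 ± 10.3 CPM, with the weak allele. Herc3 was the 1 gene of the 10 with a larger effect in which the weak allele changed by more CPM than the strong one, and its small rise of the strong allele (0.09 ± 0.04 on the log2 scale) lost its call without the 6 libraries that stood apart, at 0.05, and under both other scalings.

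Klhdc10, a kelch domain substrate receptor near Mest and Copg2, had a narrow spread. Its CAST share in F1i was 63.1% to 64.6% at P5 and 55.6% to 59.0% in adults, and in F1r 34.2% to 37.2% and 41.9% to 46.8%, without overlap. The effect fell from 0.85 to 0.37 (change -0.48 ± 0.03, adjusted p = 1e-38 by edgeR). The strong allele fell from 173 ± 5.09 to 123 ± 9.996 CPM while the weak allele had 96.0 ± 3.90 and 95.1 ± 8.16 CPM (adjusted p = 0.78).

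Trappc9 and Ago2 lie in 1 cluster on chromosome 15. Trappc9, a subunit of a vesicle trafficking complex whose intron holds the paternally expressed Peg13, had a CAST share in F1i of 77.7% to 82.5% at P5 and 70.8% to 75.9% in adults, and in F1r of 15.8% to 21.0% and 20.3% to 25.7%, with overlap in F1r only. Both its alleles rose, the weak one from 28.4 ± 2.82 to 51.9 ± 6.10 CPM and the strong one from 121 ± 9.604 to 157 ± 26.1 CPM, and the effect changed by -0.50 ± 0.04. Ago2, the slicing Argonaute protein of small RNA silencing, had shares in F1i of 83.4% to 90.9% at P5 and 75.7% to 81.0% in adults, and in F1r of 9.95% to 12.5% and 17.3% to 25.1%, without overlap. Its strong allele fell from 94.1 ± 8.21 to 53.7 ± 6.51 CPM, and its weak allele had 12.9 ± 1.62 and 14.1 ± 1.80 CPM. The effect changed by -0.93 ± 0.06 (adjusted p = 5.8e-32 by edgeR). Thus 2 neighbours with the strong allele on the same side both lost part of their effect, one with a rising and one with a falling total.

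**Figure D2:**
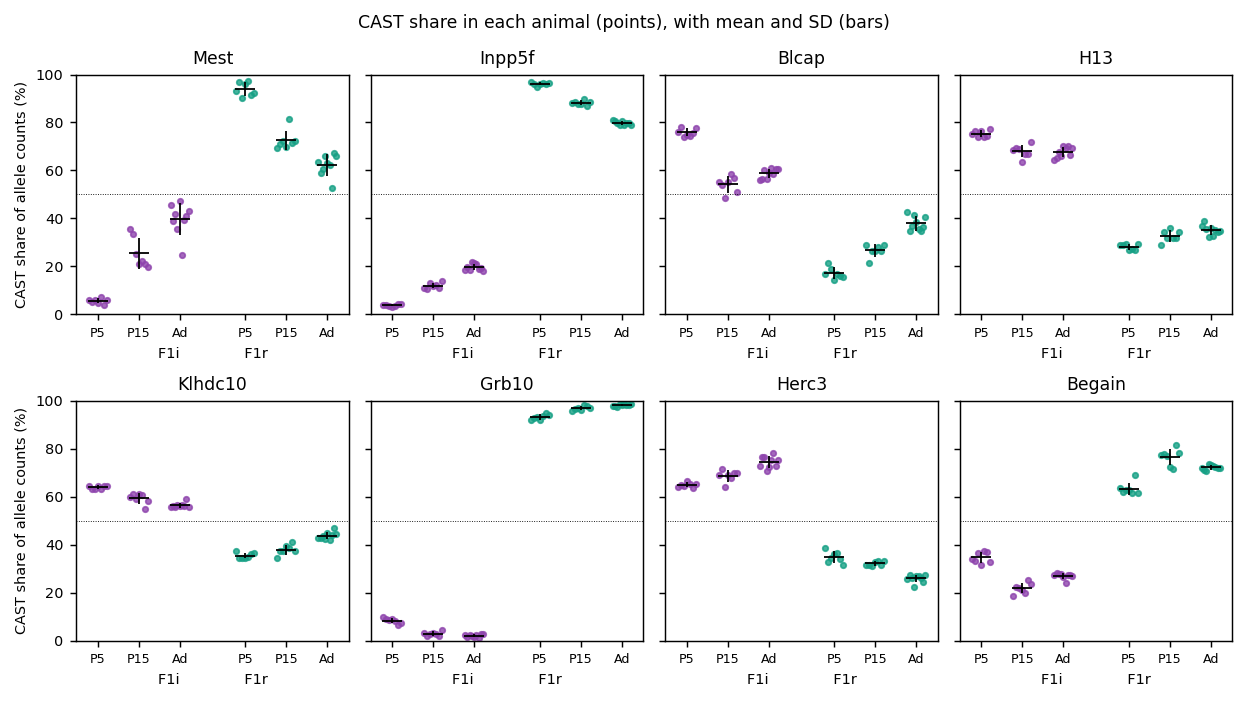
CAST share of the allele counts (vertical axis, percent) of 8 genes in each animal at P5, P15 and in adults (Ad), F1i in purple and F1r in green; points are animals, bars the mean and SD, and the dotted line is equality. The 2 crosses approach each other with age in Mest, Inpp5f, Blcap, H13 and Klhdc10 and move apart in Grb10 and Herc3; in Begain they are farthest apart at P15.

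Grb10, an adaptor that restrains insulin and growth factor receptor signalling, is known to be expressed from the paternal allele in neurons and from the maternal allele in most other tissues. Its CAST share in F1i was 6.39%, 8.58% and 9.77% at P5 and 0.903%, 2.11% and 2.65% in adults. In F1r it was 91.8%, 93.2% and 94.7% at P5 and 97.3%, 98.3% and 98.9% in adults. No adult animal overlapped with a P5 animal of its cross. The effect grew from -3.61 to -5.66 (change -2.06 ± 0.12, adjusted p = 7.7e-37 by edgeR). The strong allele rose from 50.6 ± 3.21 to 83.4 ± 4.602 CPM and the weak allele fell from 4.12 ± 0.713 to 1.61 ± 0.468 CPM. The total rose with the strong allele, from 48.9 to 62.2 CPM at P5 to 75.1 to 91.9 CPM in adults.

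Begain, a synaptic protein, and Dlk1, a noncanonical Notch ligand, lie near each other on chromosome 12 and both had a larger effect in adults. The CAST share of Begain was 31.7% to 37.2% in F1i at P5 and 23.9% to 28.1% in adults, and in F1r 61.6% to 68.9% and 70.8% to 73.6%, without overlap. Its strong allele rose from 49.9 ± 4.33 to 66.0 ± 10.4 CPM. Its weak allele had 27.6 ± 1.83 and 24.8 ± 3.71 CPM (adjusted p = 0.02), and this fall lost its call without the 6 libraries that stood apart (adjusted p = 0.21 by edgeR). Dlk1 rose from 31.9 to 41.1 CPM at P5 to 210.9 to 270.7 CPM in adults, almost all of it from the strong allele, which gained 206.2 CPM. The CAST share of Dlk1 in F1i went from 2.12% to 5.11% at P5 to 1.30% to 2.13% in adults, which overlapped, and the effect changed by -1.27 ± 0.16 (adjusted p = 8.3e-11 by edgeR).

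Zim1, a zinc finger gene of the Peg3 domain, and Calcr, the calcitonin receptor, lost counts on both alleles, in larger proportion on the weak one. The strong allele of Zim1 fell from 101 ± 8.87 to 54.2 ± 5.39 CPM and the weak one from 6.81 ± 1.23 to 1.44 ± 0.372 CPM. Its CAST share in F1i was 91.7% to 94.7% at P5 and 96.0% to 98.7% in adults, and in F1r 3.57% to 7.41% and 1.54% to 3.51%, without overlap. The effect of Zim1 changed by 1.30 ± 0.11 (adjusted p = 2.2e-22 by edgeR). For Calcr the strong allele fell from 63.3 ± 4.75 to 27.2 ± 3.40 CPM and the weak one from 2.53 ± 0.978 to 0.404 ± 0.293 CPM, and the effect changed by 1.44 ± 0.19. The CAST share of Calcr in F1i was 93.0% to 97.7% at P5 and 98.3% to 100% in adults, without overlap. In F1r it was 2.42% to 4.88% and 0.35% to 4.575%, which overlapped. Its weak allele had only 224 counts over all P5 animals and 74 over all adults.

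Copg2, a coatomer subunit, overlaps Mest on the other strand and has its strong allele on the other parental side. Its strong allele rose from 29.4 ± 2.42 to 60.5 ± 6.66 CPM and its weak allele, which is on the side of the strong allele of Mest, from 6.95 ± 1.32 to 10.5 ± 1.26 CPM. The effect went from 2.07 to 2.52 (change 0.46 ± 0.08, adjusted p = 1.3e-05 by edgeR), and CAST shares overlapped between the ages in both crosses. Ppp1r9a, the actin-binding neurabin of dendritic spines, had a smaller change, from 0.37 to 0.54 (change 0.17 ± 0.02, adjusted p = 1.2e-08 by edgeR), with both alleles higher in adults.

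Of the 27 genes, 8 had over 90% of their counts on the strong allele at both ages, and the largest shift in share among them was 5.64 percentage points, that of Grb10. In such genes the log2 ratio rests on few weak-allele counts. Impact, a regulator of translation, had a CAST share in F1i of 0.642% to 1.39% at P5 and 0.173% to 0.339% in adults, without overlap. In F1r the share of Impact was 95.7% to 97.3% at P5 and 95.3% to 99.2% in adults, which overlapped. Its effect changed by -1.29 ± 0.23 (adjusted p = 6.7e-05 by edgeR), a call lost with all chromosomes tested (adjusted p = 0.273), with all 46 animals in the fit (0.72) and with limma on the CAST share (0.919). Peg10, a gene derived from a retrotransposon, kept 99.7% and 99.8% of its counts on the strong allele, and its change of -0.95 ± 0.23 (adjusted p = 0.026 by edgeR) was lost on leaving out any of 10 of the 32 animals, and without the 6 libraries that stood apart (-0.87, adjusted p = 0.202). Rasgrf1, a Ras exchange factor of neurons, rose from 119 ± 14.1 to 707 ± 27.6 CPM, with weak-allele levels of 0.376 ± 0.420 and 5.38 ± 1.96 CPM. Its change of 1.16 ± 0.23 (adjusted p = 0.00059 by edgeR) was not called by DESeq2 (adjusted p = 0.36), and limma on the log2 ratio gave 0.42 (adjusted p = 0.964). The CAST shares of Peg10, Rasgrf1 and Asb4 overlapped between the ages in both crosses. Asb4, an ankyrin repeat protein of the same cluster as Peg10, had 94.97% of its counts on the strong allele at P5 and 93.3% in adults, with a change of -0.48 ± 0.09.

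The remaining calls were partial effects. Bcl2l1, an inhibitor of apoptosis, had its strong-allele share go from 62.3% to 57.2% (change 0.31 ± 0.05), with both alleles rising. Ddc, the decarboxylase that completes serotonin synthesis, rose from 105 ± 13.1 to 263 ± 20.7 CPM, and its small effect went from 0.23 to 0.10 (change -0.13 ± 0.03, adjusted p = 0.049 by edgeR). Leaving out any of 22 of the 32 animals lost the call of Ddc, and so did leaving out the 6 libraries that stood apart (-0.14, adjusted p = 0.0867 by edgeR). Changes of Ddc lay between -0.15 and -0.12 over all animals left out in turn. Commd1, a copper homeostasis factor that hosts Zrsr1 on the other strand, is on the maternally expressed list but its strong allele was on the side of Zrsr1. It went from -0.95 to -0.49 at means of only 76 and 256 counts, and the call was lost without F1i P5 animal 7 or F1r P5 animals 1 or 2, with changes between 0.40 and 0.55 over all animals left out in turn. Without the 6 libraries that stood apart the change of Commd1 was 0.39 and not called (adjusted p = 0.173 by edgeR).

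Of the called genes outside the lists, Stx16, a Golgi syntaxin, lies within 1 Mb of Gnas and Nespas, and Wars, the cytosolic tryptophanyl-tRNA synthetase, within 1 Mb of Begain, Dlk1, Meg3 and Rtl1. Stx16 went from 0.34 to 0.15, and its call was lost without F1i P5 animal 7 or F1r P5 animal 1, with changes between -0.21 and -0.17 over all animals left out in turn. Wars went from -0.43 to -0.30 (change 0.12 ± 0.03, adjusted p = 0.0055 by edgeR), a call lost in DESeq2 (adjusted p = 0.182) and in 3 other alternatives. The total of Wars, at 0.05 and not called, rose by 0.11 on the log2 scale without the 6 libraries that stood apart (adjusted p = 8.6e-05 by edgeR). Sh3pxd2a, a podosome scaffold on chromosome 19, went from -0.22 to -0.00, and Ttpal, related to the tocopherol transfer protein, from -0.10 to 0.03. Neither has a list gene within 1 Mb, and the call of Ttpal was lost on leaving out any of 16 of the 32 animals, and without the 6 libraries that stood apart (0.13, adjusted p = 0.173 by edgeR). Among the 9845 genes, 202 outside the lists lie within 1 Mb of a list gene.

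Of the 27 genes, the total rose in 12 and fell in 14, and over all genes tested it rose in 43.2% and fell in 42.4%, so the members' shares were near the background. Among the 10 genes with a larger effect, the total rose in 6 and fell in 4. Among the 17 with a smaller effect, it rose in 6 and fell in 10. Total and size of effect moved in the same direction in 16 of 27 genes, and across these genes the change in size of the effect and the log2 change of the total had a Pearson r of 0.43 and a Spearman rho of 0.35. Genes are not independent replicates, and the values of a gene share libraries, so this is a description.

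The total moved with the strong allele more often than with the weak one. Estimates for the strong allele and the total had the same direction in 25 of the 27 genes, with Herc3 and Wars the exceptions. Estimates for the weak allele and the total had the same direction in 19, the 8 exceptions being Blcap, Gnas, Asb4, Mest, Inpp5f, Grb10, Begain and Ago2. Without the 6 libraries that stood apart the strong allele of Wars (-0.01 to 0.05) and the weak allele of Asb4 (0.11 to -0.04) changed sign. Both moves passed the test in the same direction in 25 genes for the strong allele and in 16 for the weak. The strong allele holds more of the counts and so carries more weight in the total by construction. In CPM the strong allele changed more than the weak one in 9 of 10 genes with a larger effect and in 14 of 17 with a smaller one. Neither the agreement of each allele with the total nor the larger change in CPM was counted over all genes tested. These counts thus have no background and are not read as particular to the called genes. Over all genes tested, the alleles on the side of Meg3 rose in 41.8% and fell in 41.2%, and those of the other side rose in 41.5% and fell in 40.9%.

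The 17 smaller effects came about in 5 ways. In Mest and Inpp5f the strong allele fell and the weak allele rose. In 6 genes (Blcap, Gnas, Asb4, Klhdc10, Ago2 and Ttpal) the strong allele fell and the weak allele did not pass the test. Both alleles fell in H13 and Sh3pxd2a. Both rose in 6 genes (Bcl2l1, Rasgrf1, Ddc, Commd1, Trappc9 and Stx16), and in Wars the weak allele alone passed the test (0.11 ± 0.04 on the log2 scale), a call lost with no scaling beyond the library total, at 0.06. Without the 6 libraries that stood apart the weak alleles of Ago2 and Ttpal passed the test too, with a rise of 0.16 and a value of -0.11 on the log2 scale. The 10 larger effects came about in 3 ways. The strong allele rose and the weak fell in Herc3, Grb10 and Begain. Both rose in Ppp1r9a, Copg2, Dlk1 and Impact, though the rise of the weak allele of Impact lost its call without the 6 libraries (adjusted p = 0.054 by edgeR). Both fell in Calcr, Peg10 and Zim1.

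**Figure D3:**
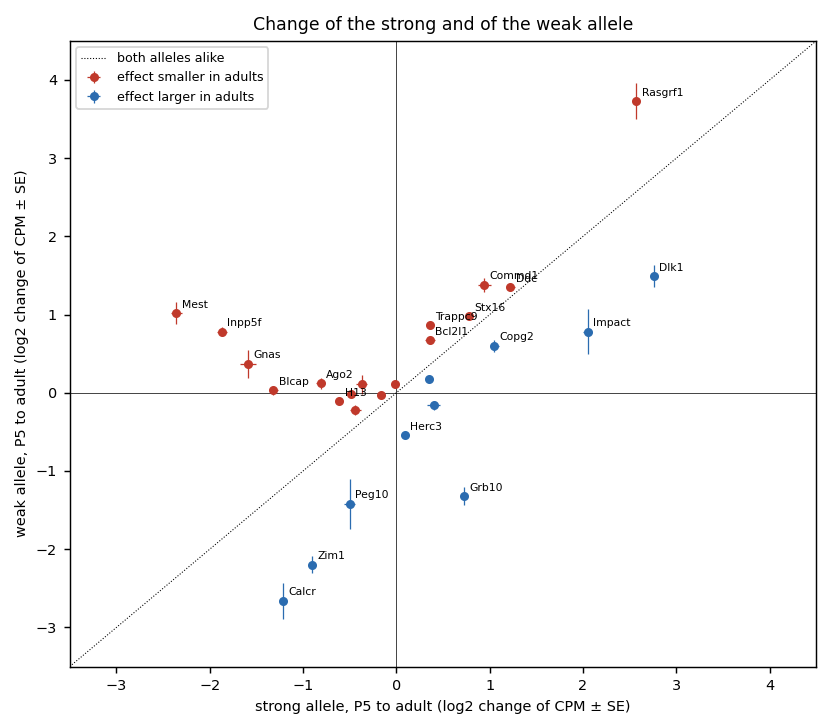
Log2 change of CPM from P5 to adult of the strong allele (horizontal axis) and of the weak allele (vertical axis) of the 27 called genes, with SE; red genes have a smaller and blue genes a larger effect in adults. Genes above the dotted line lost part of their effect by construction; the upper left field holds Mest and Inpp5f, among others, and the lower right field Grb10, Herc3 and Begain.

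Neighbouring genes moved both together and apart. Of the 27 genes, 17 have another called gene within 1 Mb, in 13 pairs. Both members had a smaller effect in adults in 4 pairs, both a larger one in 2, and the direction differed in 7. Klhdc10 and Mest lost part of their effect next to Copg2, which gained. Peg10 and Ppp1r9a gained next to Asb4, and Grb10 gained next to Ddc, the weak effect of which fell.

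At P15 the effect was called in 60 genes (0.609%). It lay between the P5 and adult values in 21 of the 27 genes, and the step from P5 to P15 was the larger one in 20. From P5 to P15 the change was called in 27 genes of all tested (0.274%) and in 19 of the 27, and from P15 to adult in 16 (0.163%) and in 9. Both comparisons share the P15 animals, and each shares animals with the main contrast. The 27 genes were chosen by their P5 to adult change in these animals, which favours a P15 value between the other ages. The position of P15 and the larger step were not counted over all genes tested, so their counts only describe the called genes. Mest went from -4.03 to -1.49 and -0.63, and Inpp5f from -4.66 to -2.88 and -2.03, with both steps called. Herc3 moved more in the second step, from 0.90 to 1.10 and 1.54. In 2 genes both steps were called in opposite directions: Begain had its largest effect at P15 (-0.85, -1.78 and -1.41), and Trappc9 its smallest (2.10, 1.39 and 1.60). For Impact the P15 effect of -5.10 rests in part on 1 F1i animal with a CAST share of 11.3%, against a median of 0.540% in that group.

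**Figure D4:**
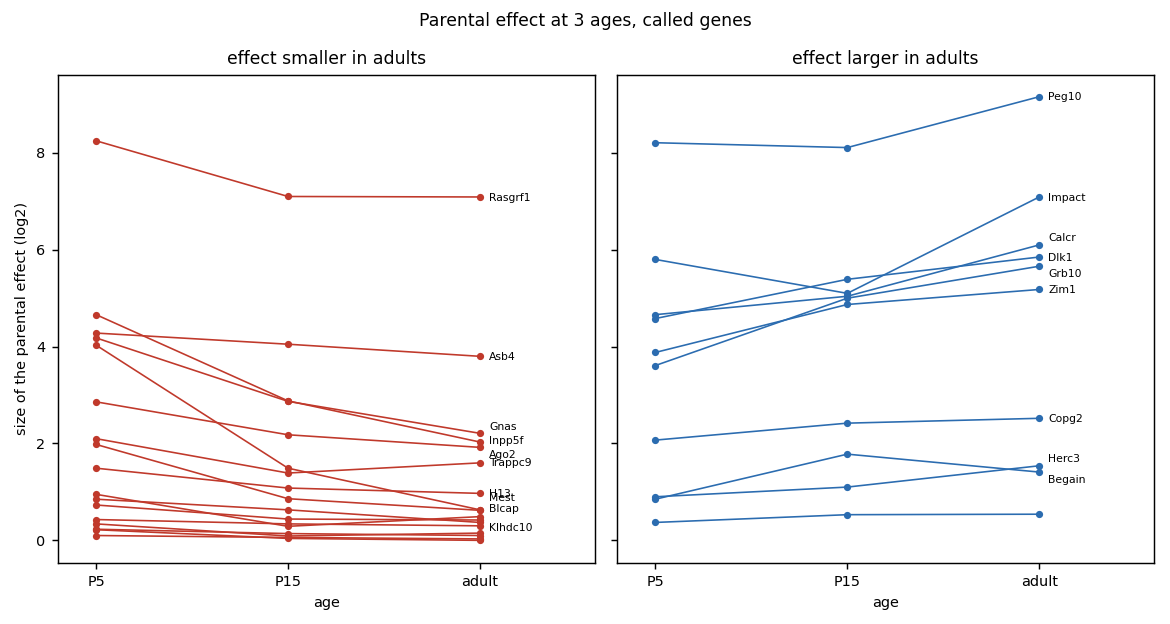
Size of the parental effect (vertical axis, log2) at P5, P15 and in adults for the 17 called genes with a smaller effect (left) and the 10 with a larger effect (right), 1 line per gene; genes with an adult effect over 0.55 and Klhdc10 are named. The steepest parts of the lines of Mest and Inpp5f are between P5 and P15, and Begain peaks at P15.

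The promoters of Mest and Grb10 are shown from the RefSeq table, as the genes with the largest change among smaller and among larger effects. The imprint-keeping protein ZFP57 binds a methylated hexamer, and the letters of this hexamer were looked for in them. Whether a window lies in an imprinting control region, or at the start of the transcripts counted here, was not tested. The motif searched was TGCCGC on both strands (GCGGCA on the other), in 300 bases from 250 before to 50 after a start, and capitals mark it. The window of Mest lies at chr6:30737800-30738099 on the plus strand (GRCm38.p6) with 17 CpG and 2 matches, and that of Grb10 at chr11:12037371-12037670 on the minus strand with 45 CpG and 1 match.
Mest: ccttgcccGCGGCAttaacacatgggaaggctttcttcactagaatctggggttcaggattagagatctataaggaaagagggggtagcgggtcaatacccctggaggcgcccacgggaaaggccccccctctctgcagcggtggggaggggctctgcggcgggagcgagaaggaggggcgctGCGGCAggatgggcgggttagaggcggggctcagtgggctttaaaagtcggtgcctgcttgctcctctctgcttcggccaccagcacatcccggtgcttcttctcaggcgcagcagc
Grb10: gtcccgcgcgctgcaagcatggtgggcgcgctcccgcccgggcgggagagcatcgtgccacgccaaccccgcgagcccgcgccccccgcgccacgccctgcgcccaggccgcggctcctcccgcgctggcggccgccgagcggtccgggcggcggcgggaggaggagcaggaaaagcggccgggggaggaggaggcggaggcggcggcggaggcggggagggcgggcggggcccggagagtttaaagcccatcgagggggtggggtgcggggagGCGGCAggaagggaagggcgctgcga
Of the 30 called genes, 20 had a start in the table, and 7 of them (35%) held the motif in at least 1 window. Of all tested genes, 7729 had a start and 1829 (23.7%) held it. Of the 40 tested list genes, 33 had a start and 13 (39.4%) held it. A gene with more starts has more windows in which to match. The called genes had 38 windows, the tested list genes 58 and all tested genes 10042. The share of the called genes is thus not read as particular to them. A match of 6 letters is a description of the window and not a binding site, and of the 3 starts of Mest and the 2 of Grb10 in the table the window with the most matches is printed.

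Other imprinted genes with an effect called at both ages had no called change. The 6 with the most counts were Meg3, Peg3, Adam23, Zdbf2, Usp29 and Plagl1. Meg3, a maternally expressed noncoding RNA, had effects of 8.24 and 8.09, with 99.6% and 99.4% of its counts on the strong allele, and a total that fell from 3524 ± 147 to 3031 ± 660 CPM. Peg3, a zinc finger transcription factor, had effects of -8.21 and -8.91 and a total that rose from 1167 ± 36.4 to 1726 ± 149 CPM. Adam23, a synaptic membrane protein, had a small effect of -0.28 and -0.29, and both alleles rose by 0.32 ± 0.04 on the log2 scale. Zdbf2 had effects of -6.43 and -6.06, Usp29 of -8.54 and -7.81, and Plagl1 of -6.48 and -6.77. The changes of these 6 genes were between -0.70 ± 0.31 and 0.73 ± 0.36. Not all list genes without a call had changes as small. Magel2, given after its value was seen, went from -8.61 to -6.24 at means of 172 and 87 counts. Its change of 2.36 ± 0.68 was not called (adjusted p = 0.19 by edgeR). With limma on the log2 ratio it was called with a pseudocount of 1 and not with 0.5.

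Of the list genes in the tables, 15 had too few counts for the test. The tested ones nearest to the limit of 50 were Igf2, with 55.1 counts at its lower age, and Zrsr1, with 70.4. Of those outside it, Mcts2, Slc38a4 and Rtl1 were called when the limit was lowered to 20 counts, and they are given for that reason, after their values were seen. Mcts2 had 29.9 counts at P5 and 50.7 in adults, with a pooled CAST share of 11.96% and 6.62% in F1i and of 81.8% and 93.5% in F1r. Slc38a4, an amino acid transporter, had a pooled share of 39.8% and 22.9% in F1i and of 67.5% and 89.6% in F1r, at means of 37.5 and 26.2 counts. Rtl1, a gene derived from a retrotransposon, had 44.9% and 36.7% in F1i and 52.1% and 68.5% in F1r. In these 3 genes the crosses were farther apart in adults. Chrac1, which overlaps Ago2, had 32.2 and 31.4 counts, and its crosses were closer in adults, with pooled CAST shares of 70.7% and 64.2% in F1i and of 17.5% and 29.2% in F1r. Atp10a, with 39.9 and 94.1 counts, had shares of 53.0% and 45.1% in F1i and of 57.2% and 47.2% in F1r. Of the rest, H19, Cdkn1c, Nnat, A230006K03Rik and Airn had more than 10 counts at both ages, and Tfpi2, Klf14, Slc22a18, Gpr1 and Dio3 had at most 5.44 at either.

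The pseudogenes Gm13340, Gm13339 and Gm11410 resemble mitochondrial sequence, which is inherited from the mother. Their counts came almost wholly from F1i: Gm13340 had means of 38400 and 130400 counts per library in F1i at P5 and in adults and of 15.6 and 19.4 in F1r, and the other two had means of at most 3.22 counts in F1r. The difference between the crosses thus rests on a few F1r reads, and the fitted changes of 1.09 ± 0.25, 2.26 ± 0.54 and 2.35 ± 0.60 are given only because they passed the test, with no direction read from them. DESeq2 and limma called none of the 3 (adjusted p of 0.944 to 1 in DESeq2 and of 0.46 to 0.966 over the limma fits). Without the 6 libraries that stood apart Gm13339 and Gm11410 were not called (adjusted p = 0.161 and 0.1 by edgeR). Their calls were lost without 3, 3 and 12 of the 32 animals in turn, among them F1r P5 animal 7 for each, and over all animals left out the changes ranged from 0.36 to 1.25, from 1.52 to 2.49 and from 0.60 to 2.72.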

How the data were processed

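RNA was extracted with Qiagen columns and sequenced as TruSeq libraries in single reads of 50 bases, per the labels' protocols. Novoalign and the mouse build mm9 are named in the submitters' processing notes. How reads were assigned to an allele, whether strand was used and how reads with several matches were treated is not given in the sources used here, so overlapping and antisense genes cannot be told apart. The deposited tables hold, for each animal, whole-number counts of C57 and of CAST reads per gene, one table for each age. The genes, lists and tests were chosen with earlier results of these data known. The counts were fitted in edgeR 4.0.16 (R 4.3.3, limma 3.58.1, DESeq2 1.42.0) by the quasi-likelihood test, with 64 allele columns of 32 animals, a term for each animal, and the animal's total as library size. P-values were adjusted by Benjamini-Hochberg over 9845 genes. The SE is the size of a change divided by the square root of its F statistic. Because it comes from that test and is too small for effects far from 0, none is given for the effect at a single age. Totals and single alleles were fitted with TMM scaling of the totals, with the crosses weighed equally, and CPM are counts scaled to a common total of the animal's 2 alleles. Genes were named if listed as imprinted and called, if among the 10 largest other called changes in each direction with 100 or more counts at both ages, or if among the 6 listed genes with most counts and effects but no called change. Genes of the X chromosome (530) and without a chromosome (530) were left out. P-values measure only the spread between libraries, each treated as 1 animal. For the adults this spread would be technical where libraries shared an animal. Where animals shared a litter they would not be independent. The labels settle neither. Depth limits the genes with few weak-allele counts. Alternatives were DESeq2, limma on ratios and shares, other filters, scalings, gene sets and libraries, thinning and a replicate block.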

Additional observations from a re-analysis of the deposited data

Results flagged for a closer look

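The test of the change compares the effect at 2 ages, and each called gene is therefore listed with its change. Among smaller effects these were Mest 3.40, Inpp5f 2.63, Gnas 1.97, Rasgrf1 1.16, Commd1 0.46, Bcl2l1 0.31, Sh3pxd2a 0.22, Ttpal 0.13 and Wars 0.12, on the side where the P5 effect was negative. On the other side they were Blcap -1.36, Ago2 -0.93, H13 -0.52, Trappc9 -0.50, Asb4 -0.48, Klhdc10 -0.48, Stx16 -0.19 and Ddc -0.13. Among larger effects the changes were Calcr 1.44, Zim1 1.30, Herc3 0.64, Copg2 0.46 and Ppp1r9a 0.17, and with a negative sign Grb10 -2.06, Impact -1.29, Dlk1 -1.27, Peg10 -0.95 and Begain -0.55. The pseudogenes had fitted changes of 2.35 (Gm11410), 2.26 (Gm13339) and 1.09 (Gm13340), which rest on a few F1r reads.

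Single animals stood apart from their group in 10 of 144 groups of animals and genes, in 9 genes, where chance gives about 1 in 20. The log2 CAST over C57 ratio of Gnas in F1r adult 5_3 was 3.89, a CAST share of 94.8% where the others had 79.5% to 87.0%. That of Klhdc10 in F1i adult 2_3 was 0.53, a share of 59.0% against 55.6% to 56.4%. Mest had a ratio of -1.55 in F1i adult 3_2, a share of 24.6% against 35.7% to 47.2%. The same animal had a ratio of -1.67 for Begain, a share of 23.9% against 26.4% to 28.1%, and F1r P5 animal 2 had 1.14 for Begain, 68.9% against 61.6% to 63.6%. Trappc9 had a ratio of -1.97 in F1r adult 7_3, a share of 20.3% against 23.4% to 25.7%. In F1r adult 6_2 the ratio was -7.46 for Meg3 and 5.15 for Usp29, with shares of 0.559% against 0.0501% to 0.114% and of 97.4% against 99.4% to 99.8%. Zdbf2 had a ratio of -5.75 in F1i adult 2_1, a share of 1.76% against 0% to 0.599%, and Gm11410 one of 12.26 in F1i P5 animal 2.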

How the results depend on the processing

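Of the 30 calls of a change, DESeq2 made 18, with 9 smaller effects, and no gene outside the 30. limma on the CAST share made 16 calls, 6 larger and 10 smaller, with 15 of them among the 30, and a fit on all chromosomes made 23, with 8 larger. The cause was not tested. The other alternatives made 22 to 37 calls, with 37 when no filter on counts was used, and 27 without the 6 adult libraries that stood apart, 24 of them among the 30. Of the 27 genes without the pseudogenes, 15 kept their call in every alternative and 12 lost it in 1 or more, Ddc in 10, Peg10 and Ttpal in 8, Commd1 in 7, Rasgrf1 and Wars in 4, Asb4, Impact, Sh3pxd2a and Stx16 in 3, and Calcr and Dlk1 in 1. Over 534 values of named genes, 453 kept direction and call, 78 lost the call and 2, both of Peg3, gained it (-0.70 with no filter and -0.71 with adult counts summed over the first label number). The change of Meg3, -0.14 and not called, was 0.0229 in DESeq2 (adjusted p = 1). Leaving out each of the 32 animals in turn gave 25 to 32 calls, and 22 of the 30 genes kept their call throughout. The replicate numbers did not meet the rule for pairing, that every same-numbered pair correlate above 0.1. Deviations of the ratio of same-numbered animals across the crosses correlated at -0.014 to 0.025 at P5 and -0.04 to 0.07 in adults. Those of the totals correlated at -0.082 to 0.075 at P5, and in adults at -0.443 to 0.814, with a median of 0.308, 19 of 27 pairs above 0.1, and a median of -0.106 for other numbers. Of the 6 libraries that stood apart, 5 carry the second number 1. With the replicate block 26 calls were made, 10 larger and 16 smaller, without Ddc, Gm11410, Gm13339 and Peg10. Among the 30 genes the block gave 12 totals that rose and 14 that fell, as without it, and weak alleles that rose in 15 and fell in 8, against 13 and 10 without it. The median log2 change of all totals was 0.01, -0.04 without scaling and -0.02 with upper quartile scaling.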
